A study of Homo sapiens with 4 samples.

Results

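A set of 10 forkhead transcription factors with roles in endoderm, mesoderm and endothelium was followed in human embryonic stem cells (hESCs) on their way to blood: FOXA1, FOXA2, FOXA3, FOXF1, FOXC1, FOXC2, FOXD1, FOXS1, FOXO1 and FOXP1. They were taken from the deposited expression table by gene symbol, and each of the 10 symbols had 1 of the 58365 rows. The cells were H1, an established hESC line. All cultures received activinA (40 ng/ml) and BMP4 (50 ng/ml) for 2 days and VEGF (40 ng/ml) with bFGF (50 ng/ml) for 3 days. For the last 3 days VEGF and bFGF were continued either without the inhibitor (DMSO group) or with SB431542 (SB group), a small molecule that blocks the type I receptors ALK4, ALK5 and ALK7 through which TGFβ, activin and nodal signal. RNA was sequenced at day 8 from 2 libraries of each group, DMSO replicates 1 and 2 and SB replicates 1 and 2. The study describes the collected cells as CD31+, which the sample labels do not mention, and the samples came from 1 cell line. The labels do not say whether replicates were separate differentiations, so the p-values measure the spread between libraries, which may be technical. The comparison asked which of these factors differed in level when TGFβ-family receptors were blocked during the passage from endothelium to blood.

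Forkhead proteins bind DNA through a winged-helix domain whose recognition helix lies in the major groove. The FOXA factors open closed chromatin and specify endoderm and its liver derivatives. FOXF1 marks lateral plate and splanchnic mesoderm, FOXC1 and FOXC2 act in paraxial mesoderm and in arterial and lymphatic endothelium, FOXD1 in the stroma of the developing kidney and FOXS1 in pericytes and neural crest derivatives. FOXO1 is exported from the nucleus when AKT phosphorylates it and is needed for vessel formation, and FOXP1 is a repressor found in blood and endothelial cells.

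The coding sequence over the recognition helix shows how alike these genes are and where they part. The 60-base stretches below, read from GENCODE 29 transcripts in the sense direction, each lie within 1 coding exon and start at the same conserved codon of the helix. Capitals mark bases that differ from FOXC1, and coordinates are on GRCh38.
FOXC1 (chr6:1610809-1610868, forward strand): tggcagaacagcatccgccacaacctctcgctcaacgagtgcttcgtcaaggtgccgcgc
FOXC2 (chr16:86567681-86567740, forward strand): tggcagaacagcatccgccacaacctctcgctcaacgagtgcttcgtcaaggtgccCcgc
FOXS1 (chr20:31845300-31845359, reverse strand): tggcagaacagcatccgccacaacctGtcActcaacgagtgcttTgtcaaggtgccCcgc
FOXD1 (chr5:73447799-73447858, reverse strand): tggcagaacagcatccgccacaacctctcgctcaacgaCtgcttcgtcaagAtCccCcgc
FOXF1 (chr16:86510843-86510902, forward strand): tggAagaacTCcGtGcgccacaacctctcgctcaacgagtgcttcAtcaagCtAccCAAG
FOXC2 differed from FOXC1 at 1 of the 60 bases, FOXS1 and FOXD1 at 4 each, and FOXF1 at 12. Over 270 coding bases around the helix, FOXC1 and FOXC2 were 95.9% identical and FOXA1 and FOXA3 85.9%, whereas FOXF1 and FOXA3 were 65.6% identical.

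Likeness of this kind matters for read assignment. Outside that stretch the transcripts diverged, and 0.516% of the 50-base windows of FOXC1 and 4.08% of those of FOXC2 occurred in the transcript of another gene. For FOXC2 those genes were FOXC1 and the overlapping antisense gene FOXC2-AS1, which was listed at 0 in every library. No window of FOXA1, FOXA3 or FOXS1 was shared. The share reached 17.1% for FOXD1, mainly with the overlapping FOXD1-AS1, and 25.7% for the longest FOXP1 transcript, with a transcript annotated as AC097634.4. Whether counting used the strand is not given in the sources used here, so reads of FOXD1 and of FOXD1-AS1 cannot be told apart with certainty.

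Expression was deposited as FPKM, fragments scaled by transcript length and by the mapped fragments of the library, a unit that can be compared between genes. The steps between low values gave an estimated depth of 24220000 and 23520000 fragments for DMSO replicates 1 and 2, and of 19690000 and 25980000 for SB replicates 1 and 2. Endothelial identity was checked on 10 markers. All 10 were above the 1 FPKM limit in every library and their summed FPKM was 1566 to 1749 in DMSO and 1453 to 1588 in SB. CDH5, the junctional cadherin of endothelium, stood at 246 to 273 FPKM in DMSO and 202 to 224 FPKM in SB. Of 8 blood markers PTPRC, the pan-leukocyte CD45, stayed between 0.00948 and 0.202 FPKM. The blood list summed to 301.2 and 315.7 FPKM in DMSO and to 441.9 and 483.2 FPKM in SB.

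FOXC1 was the most abundant of the 10 factors in both groups and FOXO1 came next, with mean levels of 14.9 and 11.0 FPKM in DMSO and 19.2 and 12.3 FPKM in SB, and the libraries of the pair overlapped in each group. In DMSO, FOXO1 lay clear of FOXP1 at 6.35 FPKM, and from FOXP1 down to FOXA3 at 1.51 FPKM no factor was separated from its neighbour in the order. In SB, FOXO1 was apart from FOXF1 (6.72 FPKM), FOXF1 and FOXP1 (5.56 FPKM) overlapped, and FOXP1 was apart from the remaining 6 factors, whose means lay between 0.390 and 0.992 FPKM. FOXF1 held place 6 of the order in DMSO and place 3 in SB, and FOXC2 place 4 and place 8. FOXC2 made up 9.15% and 9.64% of the summed FPKM of the 10 factors in the DMSO libraries and 1.56% and 1.22% in the SB libraries, while FOXF1 made up 6.89% and 7.89% in DMSO and 13.9% in each SB library.

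**Figure D1:**
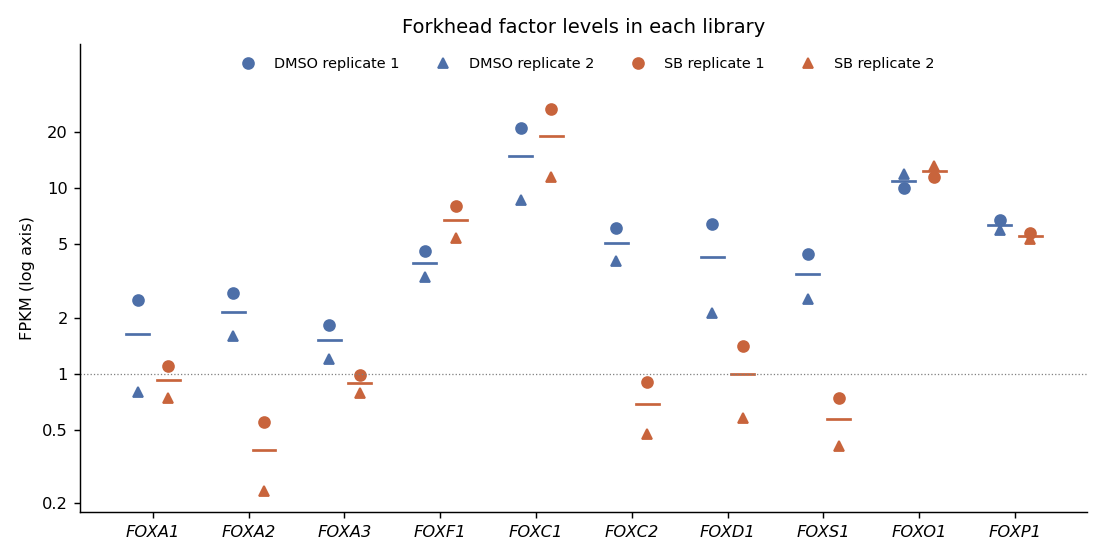
FPKM on a log axis (vertical) of the 10 forkhead factors (horizontal) in each DMSO library (blue) and SB library (orange). Circles are replicate 1, triangles replicate 2, horizontal bars group means and the dotted line 1 FPKM. FOXA2, FOXA3, FOXC2 and FOXS1 lie above the line in both DMSO libraries and below it in both SB libraries. FOXF1 is higher in both SB libraries than in either DMSO library.

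Differences were tested with limma on log2(FPKM + 1) across the 14909 genes whose mean reached 1 FPKM in either group, with Benjamini-Hochberg adjustment. None of the 10 factors passed an adjusted p of 0.05, against 0.134% of all genes tested (20 genes, of which 4 or 0.0268% were higher and 16 or 0.107% lower in SB). At an unadjusted p under 0.05, 4 factors were lower in SB (FOXA2, FOXC2, FOXD1 and FOXS1) and 0 were higher, where 5.16% of all tested genes were lower and 4.80% higher (9.96% together). The libraries of the groups did not overlap for 1 factor that was higher in SB (FOXF1) and for 6 that were lower, beside 21.5% and 16% of all tested genes (37.5% in either direction). However, FOXA1, FOXA2, FOXA3, FOXC2, FOXD1 and FOXS1 entered the test only because their DMSO mean reached 1 FPKM, which by itself favours a lower SB value, and nothing is drawn from these counts. In addition, the study picked candidate transcription factors from these same libraries among those lower in SB, so a lower value of a factor here is not independent evidence.

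**Figure D2:**
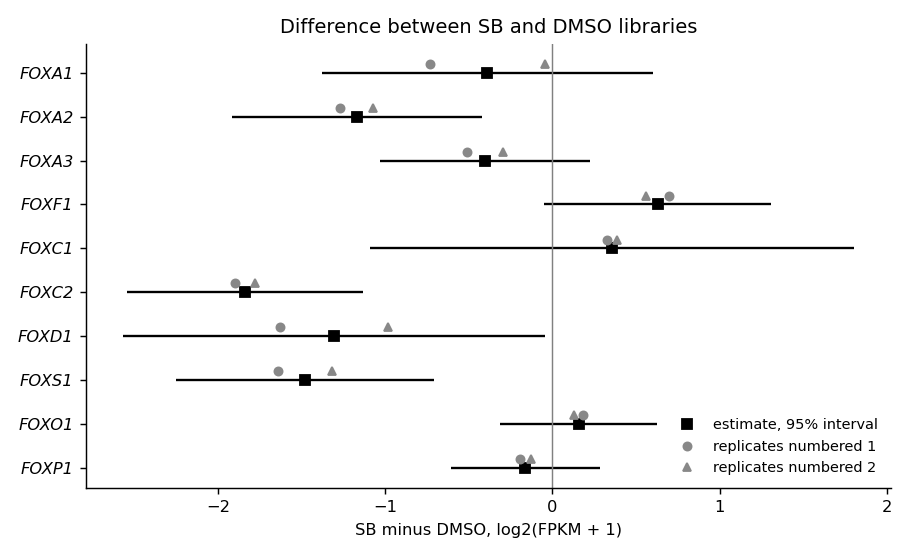
Difference between SB and DMSO on the log2(FPKM + 1) scale (horizontal) for each factor (vertical). Squares are limma estimates with 95% intervals, and grey symbols give SB minus DMSO between libraries of the same number. The intervals of FOXA2, FOXC2, FOXD1 and FOXS1 lie below 0, and that of FOXF1 runs from -0.05 to 1.31.

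Among the endoderm factors, FOXA2 had the widest gap between the groups. FOXA2, the FOXA gene needed for definitive endoderm and floor plate, stood at 2.73 FPKM in DMSO replicate 1, 1.59 in DMSO replicate 2, 0.547 in SB replicate 1 and 0.234 in SB replicate 2. Both SB libraries were thus below both DMSO libraries, and the DMSO mean was 5.53 times the SB mean. The difference on the log2(FPKM + 1) scale was -1.17 (95% interval -1.92 to -0.42; limma, adjusted p = 0.291), and -2.24 with a pseudocount of 0.1, which compresses low values less. In bulk RNA, fewer cells of a type and less RNA per cell cannot be told apart.

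The other FOXA genes were closer between groups. FOXA1, a pioneer factor of endoderm and of hormone-responsive epithelia, was at 2.49 and 0.795 FPKM in DMSO replicates 1 and 2 and at 1.10 and 0.740 FPKM in SB replicates 1 and 2. One DMSO library was high and the other lay between the SB libraries, so the groups overlapped. The log2 difference of -0.39 (95% interval -1.38 to 0.60; limma, adjusted p = 0.853) became 0.09 without DMSO replicate 1. FOXA3, which acts in liver and gut, was at 1.83 and 1.20 FPKM in DMSO and 0.984 and 0.790 FPKM in SB, with each SB library just below the lower DMSO library and a log2 difference of -0.40 (95% interval -1.03 to 0.22; limma, adjusted p = 0.727). In DMSO the level of FOXA2 on the log2(FPKM + 1) scale exceeded that of FOXA1 by 0.31 ± 0.31 (SD, n = 2), and in SB it was below FOXA1 by 0.47 ± 0.04, written as a difference of -0.47. This comparison was 1 of 7 gene pairs chosen after their values were seen, and an exact two-sided permutation test of any of them with 2 libraries a group cannot give a p below 0.333, the value found for all 7 (0.333 after Benjamini-Hochberg adjustment).

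LINC00261, the long non-coding RNA that lies 2.36 kb from FOXA2 (chr20:22547671-22578642), was listed at 0.615 and 0.649 FPKM in DMSO and at 0.000574 and 0.000440 FPKM in SB. Like all 7 non-coding neighbours examined, it did not reach a mean of 1 FPKM in either group and was not tested. Its DMSO libraries were both far above its SB libraries, the same order as for FOXA2. FOXCUT, upstream of FOXC1, was at 0.618 and 0 FPKM in DMSO and 0 and 0.680 FPKM in SB, FOXP1-IT1 at 0.0253, 0.0131, 0 and 0 FPKM, and FOXP1-AS1 was listed at 0 throughout.

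FOXF1 was the only one of the 10 factors whose SB libraries were both above its DMSO libraries. FOXF1 (chr16:86510527-86515418) is required in the embryo for extraembryonic and lateral plate mesoderm and for the vessels that form there. It stood at 4.58 and 3.32 FPKM in DMSO replicates 1 and 2 and at 8.07 and 5.37 FPKM in SB replicates 1 and 2. These values correspond to about 360, 252, 513 and 451 fragments, and the 95% Poisson interval of SB replicate 2 (4.89 to 5.89 FPKM) overlapped that of DMSO replicate 1 (4.12 to 5.08 FPKM). Such intervals cover counting error only, since fragments are not independent molecules. The SB mean was 1.70 times the DMSO mean, and the log2 difference was 0.63 (95% interval -0.05 to 1.31; limma, adjusted p = 0.543).

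FOXF1 lies in a cluster with other forkhead genes, and its neighbours did not share its direction. FENDRR, the non-coding RNA transcribed divergently 1.43 kb away, was listed at 0.234 and 0.399 FPKM in DMSO and at 0.0561 and 0.0424 FPKM in SB, with both SB libraries lower. FOXC2, 51.8 kb downstream of FOXF1, was lower in both SB libraries as well. FOXL1, a factor of gut mesenchyme that lies 6.64 kb beyond FOXC2 and that was chosen after its values were seen, was at 2.58 and 1.69 FPKM in DMSO and 1.13 and 0.639 FPKM in SB, a log2 difference of -0.73 (limma, adjusted p = 0.482). Of these 4 neighbouring genes, FOXF1 alone had its higher libraries in SB.

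The differences between FOXF1 and its neighbours were compared as pairs chosen after their values were seen. On the log2(FPKM + 1) scale FOXF1 minus FOXC2 was -0.34 and -0.23 in the DMSO libraries and 2.25 and 2.11 in the SB libraries, a change of 2.47. FOXF1 minus FOXL1 was 0.64 and 0.69 in DMSO and 2.09 and 1.96 in SB, a change of 1.36, and FOXF1 minus FENDRR changed by 0.96 (SB mean 2.86, DMSO mean 1.90). FOXF1 minus FENDRR was 2.18 and 1.63 in the DMSO libraries and 3.10 and 2.61 in the SB libraries. FENDRR stayed below 1 FPKM, where this scale compresses differences, and its DMSO mean was 6.43 times its SB mean. The sizes of the changes therefore do not rank the pairs. Each pair had an exact p of 0.333, the limit of this design, and since FOXC2 and FOXL1 passed the filter through DMSO only and FENDRR did not pass it, these values are a description.

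**Figure D3:**
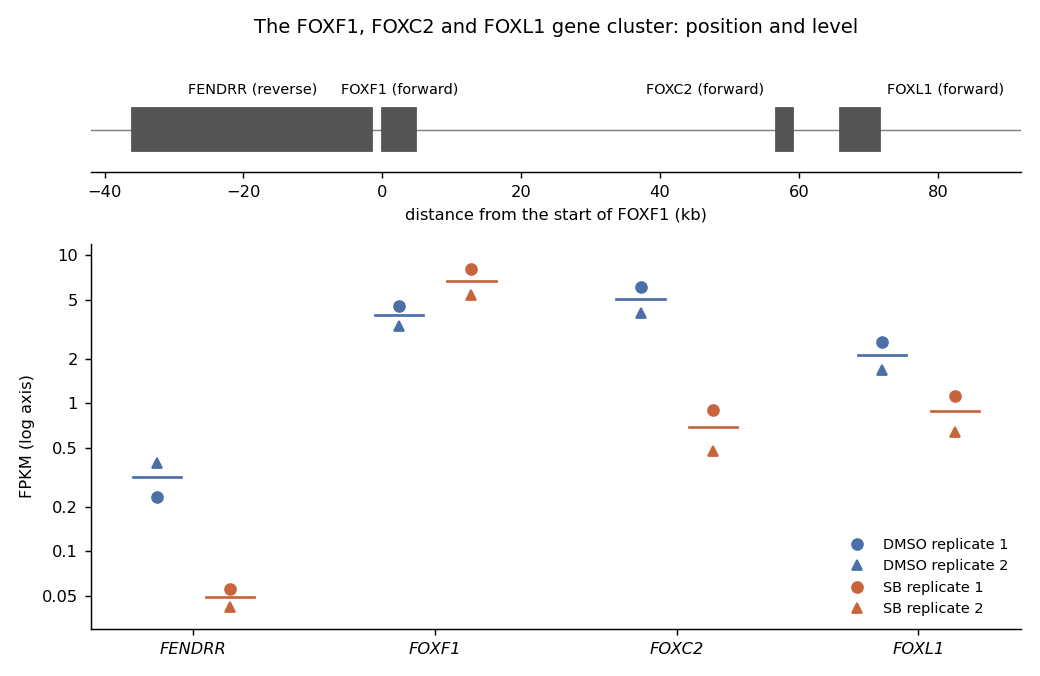
Top, position of FENDRR, FOXF1, FOXC2 and FOXL1 on chromosome 16 as distance from the start of FOXF1 in kb, with the direction of transcription in brackets. Bottom, FPKM on a log axis in each DMSO (blue) and SB (orange) library, with circles for replicate 1, triangles for replicate 2 and bars for group means. FOXF1 is higher in SB, and the other genes are lower in both SB libraries than in either DMSO library.

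FOXC1 and FOXC2, near-identical over the recognition helix, differed from each other in these libraries. FOXC1, which with FOXC2 induces DLL4 and other arterial genes, stood at 21.2 and 8.61 FPKM in DMSO replicates 1 and 2 and at 26.8 and 11.6 FPKM in SB replicates 1 and 2. The groups overlapped, because the library numbered 1 was 2.46 times the library numbered 2 in DMSO and 2.32 times in SB. The log2 difference was 0.36 (95% interval -1.09 to 1.80; limma, adjusted p = 0.928), 0.33 between the libraries numbered 1 and 0.39 between those numbered 2. It turned to -0.25 without DMSO replicate 2 and to -0.22 without SB replicate 1, and leaving out DMSO replicate 1 or SB replicate 2 gave 0.96 and 0.93.

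FOXC2, needed for lymphatic valves and for arterial specification, stood at 6.08 and 4.06 FPKM in DMSO and at 0.904 and 0.474 FPKM in SB. About 325 and 209 fragments lay behind the DMSO values and 39 and 27 behind the SB values. The 95% Poisson intervals of DMSO replicate 2 (3.53 to 4.65 FPKM) and SB replicate 1 (0.643 to 1.24 FPKM) were apart. Such intervals cover counting error only, not the spread between libraries. FOXC2 entered the test through DMSO only, which by itself favours a lower SB value. The DMSO mean was 7.36 times the SB mean, the widest ratio of the 10 factors. The log2 difference was -1.84 (95% interval -2.54 to -1.13) with an adjusted p of 0.135 (limma), the lowest among the 10. FOXC1 minus FOXC2 on the log2(FPKM + 1) scale was 1.29 ± 0.51 (SD, n = 2) in DMSO and 3.48 ± 0.55 in SB, a change of 2.19 with an exact p of 0.333, the smallest possible.

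FOXS1 had the second widest ratio. FOXS1 (chr20:31844301-31845619), a small gene of pericytes and sensory neurons, was at 4.42 and 2.52 FPKM in DMSO and at 0.737 and 0.409 FPKM in SB, the DMSO mean being 6.05 times the SB mean. Its short transcript of 1319 nt was covered by about 112 and 61 fragments in DMSO and by 15 and 11 in SB. The 95% Poisson interval, which covers counting error only, reached 1.22 FPKM in SB replicate 1 and started at 1.92 FPKM in DMSO replicate 2. FOXS1 also entered the test through DMSO only. The log2 difference was -1.48 (95% interval -2.25 to -0.71; limma, adjusted p = 0.218), with -1.64 and -1.32 between libraries of the same number. All libraries of SB were below all of DMSO.

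FOXD1 differed in the same direction with a larger spread. FOXD1 (chr5:73444827-73448527) stood at 6.44 and 2.12 FPKM in DMSO replicates 1 and 2 and at 1.41 and 0.578 FPKM in SB replicates 1 and 2. The higher SB library was below the lower DMSO library, but the DMSO libraries themselves were 3.03-fold apart. The log2 difference was -1.31 (95% interval -2.57 to -0.04; limma, adjusted p = 0.485) and it was -0.68 without DMSO replicate 1. FOXD1-AS1, which lies inside FOXD1, was listed at 5.97e-07, 0.910, 0 and 1.13 FPKM in DMSO replicates 1 and 2 and SB replicates 1 and 2. At the estimated depth this came to 2.9 fragments in DMSO replicate 2 and 4.2 in SB replicate 2, or 2.87% and 12.2% of the fragments of the pair of genes.

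Of the factors in question, 6 had RefSeq promoter entries, and FOXD1 was the only one of the genes with a log2 difference of -1 or below that had one. The RefSeq start of FOXD1 lies upstream of the measured row, which spans chr5:73444827-73448527. The 250 bases before that RefSeq start, chr5:73448778-73449027 on GRCh38.p14 (reverse strand), hold 1 match to CAGAC, the letters of the SMAD-binding element. These letters were searched on both strands and are shown in capitals.
FOXD1 promoter: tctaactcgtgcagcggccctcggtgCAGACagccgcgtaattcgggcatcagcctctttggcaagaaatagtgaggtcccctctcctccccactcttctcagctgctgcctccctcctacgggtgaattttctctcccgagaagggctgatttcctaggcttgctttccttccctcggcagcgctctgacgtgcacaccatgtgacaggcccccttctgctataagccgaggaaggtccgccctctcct
The same letters occurred in 38.0% of all 35116 promoters in the table. The FOXA3 promoter held 1 match as well, as did 3 of the 6 FOXP1 promoters, and those of FOXC1, FOXA1 and FOXO1 held 0. A match is a description of letters and was not tested as a site.

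FOXO1 and FOXP1 had the smallest differences. FOXO1, the insulin- and growth-factor-regulated forkhead factor of endothelium, was at 10.02 and 11.9 FPKM in DMSO and at 11.5 and 13.1 FPKM in SB, with overlapping groups and a log2 difference of 0.16 (95% interval -0.31 to 0.63; limma, adjusted p = 0.886). FOXP1 was at 6.75 and 5.95 FPKM in DMSO and 5.77 and 5.36 FPKM in SB. Its SB libraries were both slightly below its DMSO libraries, with a log2 difference of -0.16 (95% interval -0.61 to 0.28; limma, adjusted p = 0.871). These intervals were the narrowest of the 10 and still admit differences of more than 0.6 on the log2 scale.

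Spread between replicates was not even over the factors. In both groups the library numbered 1 was above the library numbered 2 for every factor but FOXO1, whose ratios were 0.840 in DMSO and 0.877 in SB. The ratio was highest for FOXA1 in DMSO (3.13) and for FOXD1 in SB (2.43). The GC content of the transcripts ran from 40.3% for FOXP1 and 46.4% for FOXO1 to 66.0% for FOXD1, and its part in these ratios was not tested.

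None of the 14 other forkhead genes tested had a difference of 1 or more in size on the log2(FPKM + 1) scale. Of 39 other forkhead genes, 24 were below 1 FPKM in every library and 14 were tested, with 0 called by limma and a median log2 difference of -0.04, beside 0.04 for all tested genes. FOXK2, FOXN3 and FOXP4, broadly expressed factors, had the highest levels. FOXK2 was at 33.3 and 18.2 FPKM in DMSO and 34.8 and 19.6 FPKM in SB, and FOXN3 at 23.1 and 25.9 FPKM in DMSO and 22.9 and 21.7 FPKM in SB. FOXP4 was at 24.9 and 12.4 FPKM in DMSO and 15.9 and 7.65 FPKM in SB, with overlapping groups and a log2 difference of -0.62.

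Of these other genes, 2 were higher and 1 lower at an unadjusted p under 0.05, beside 4.80% and 5.16% of all tested genes. These 3 genes were named after their values were seen. FOXN2 was higher in SB, at 7.34 and 9.74 FPKM in DMSO and 16.4 and 19.6 FPKM in SB (log2 difference 0.997; limma, adjusted p = 0.237). FOXM1, a driver of the G2/M genes of dividing cells, was at 11.1 and 12.1 FPKM in DMSO and 15.7 and 17.3 FPKM in SB, and FOXL1 was the lower one.

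**Figure D4:**
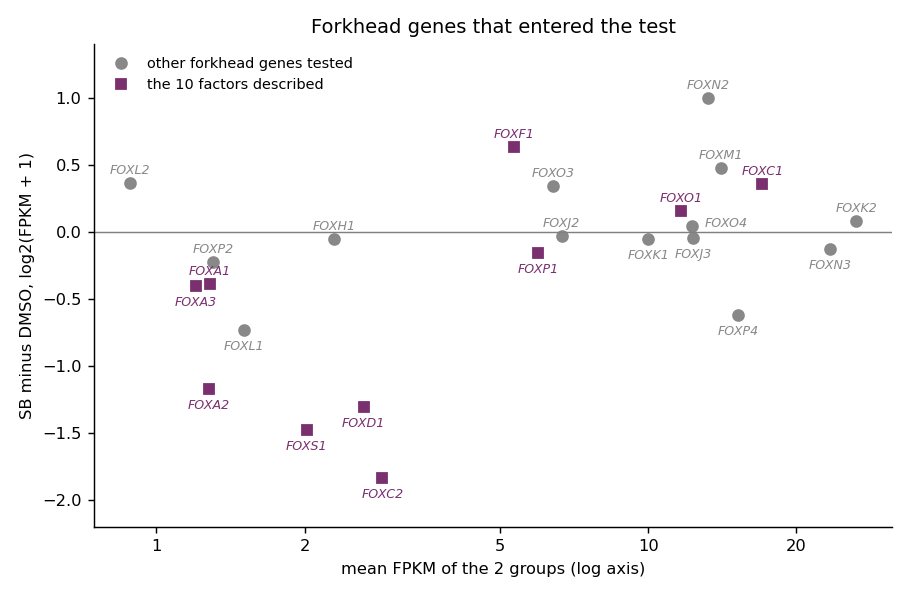
SB minus DMSO on the log2(FPKM + 1) scale (vertical) against the mean FPKM of the groups on a log axis (horizontal) for the 24 forkhead genes tested. Squares are the 10 factors described and circles the other 14. FOXC2, FOXS1, FOXD1 and FOXA2 lie at -1.17 or below, and FOXL1 comes next at -0.73.

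Genes of the tissues or pathways linked to these factors were taken from lists chosen for each setting. Whether the factors act on these genes was not tested. Liver genes of the FOXA setting had the lowest median of the lists, -1.81 on the log2 scale against 0.04 for all tested genes. Of 20 listed, 12 were tested and 4 fell (limma, adjusted p under 0.05), beside 0.107% of all tested genes. APOA1, the main protein of high-density lipoprotein, fell from 64.2 and 56.3 FPKM to 3.31 and 3.39 FPKM (log2 difference -3.81; limma, adjusted p = 0.0201). AFP, alpha-fetoprotein of fetal liver and yolk sac, fell from 43.5 and 54.2 FPKM to 3.45 and 3.05 FPKM (adjusted p = 0.0232), and TTR, the thyroxine carrier, from 45.0 and 57.9 FPKM to 5.45 and 5.55 FPKM (adjusted p = 0.0353). None of the 4 calls held when any 1 of the 4 libraries was left out, with the count at 0 in each case, nor without the filter on low values. Of the 12 genes, 7 entered the test through DMSO only.

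The endoderm factors were mixed. Of 18 listed, 9 were tested and 0 were called, with a median of -0.52. At an unadjusted p under 0.05, 3 were lower, beside 5.16% of all tested genes. GATA4, a zinc-finger factor of endoderm and heart, was at 35.5 and 22.9 FPKM in DMSO and 9.68 and 6.05 FPKM in SB (limma, adjusted p = 0.187). HNF4A, the hepatocyte nuclear receptor, was at 1.52 and 0.673 FPKM in DMSO and 0.172 and 0.0516 FPKM in SB, and MIXL1, a primitive streak factor, at 1.41 and 1.79 FPKM in DMSO and 0.685 and 0.783 FPKM in SB. The SB libraries were below the DMSO libraries for all 3 of these genes. HNF4A and MIXL1 were among 3 of the 9 tested genes that entered through DMSO only, which by itself favours a lower SB value. Of the 9 genes, 4 had both SB libraries below both DMSO libraries and 0 had both above, beside 16% and 21.5% of all tested genes. HHEX stood at 77.8 and 74.5 FPKM in DMSO and 85.0 and 76.3 FPKM in SB. SOX17 stood at 53.3 and 17.5 FPKM in DMSO and 49.3 and 17.3 FPKM in SB. The groups overlapped for HHEX and for SOX17.

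Arterial and Notch genes of the FOXC setting were all measured, with 1 of 16 called lower, 0 called higher and a median of -0.63. Over all tested genes 0.107% were called lower and 0.0268% higher. GJA5, the gap junction protein connexin 40 of arterial endothelium, fell from 491 and 400 FPKM to 69.3 and 58.3 FPKM (log2 difference -2.78; limma, adjusted p = 0.0365), a call that was lost when any 1 library was left out and without the filter. HEY2, a Notch target of arteries, was at 21.2 and 22.2 FPKM in DMSO and 6.07 and 6.17 FPKM in SB (adjusted p = 0.0697). ITGB3, the integrin beta chain whose promoter FOXC2 binds in endothelium, was in the opposite order at 75.0 and 70.4 FPKM in DMSO and 134 and 126 FPKM in SB (adjusted p = 0.1996).

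Splanchnic mesoderm genes of the FOXF1 setting were mixed. Of 18 listed, 9 were tested and 0 called, with 2 higher and 4 lower at an unadjusted p under 0.05 and a median of -0.14. Over all tested genes 4.80% were higher and 5.16% lower at that unadjusted p. HAND1, a basic helix-loop-helix factor of lateral mesoderm, was at 11.3 FPKM in DMSO and 2.16 FPKM in SB (SD 0.409 and 0.254, n = 2; log2 difference -1.97; limma, adjusted p = 0.0646). BMP4, a signalling ligand made by mesoderm, averaged 16.1 FPKM in DMSO and 5.26 FPKM in SB, and TBX20, a T-box factor of heart mesoderm, 3.07 and 1.28 FPKM. These 3 genes were lower in both SB libraries than in either DMSO library, opposite to FOXF1. NKX2-3, a homeobox factor of gut mesoderm, and PTCH1, the hedgehog receptor, were in the order of FOXF1. NKX2-3 was at 0.410 and 0.376 FPKM in DMSO and 1.63 and 1.47 FPKM in SB. NKX2-3 entered the test through SB only, which by itself favours a higher SB value. PTCH1 was at 4.24 and 4.42 FPKM in DMSO and 6.11 and 6.90 FPKM in SB.

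Mural genes of the FOXS1 setting had 9 of 13 genes tested, 0 called, 4 lower at an unadjusted p under 0.05 and a median of -0.50. The share of all tested genes lower at that unadjusted p was 5.16%. TAGLN, an actin-binding protein of smooth muscle, averaged 17.6 FPKM in DMSO and 4.73 FPKM in SB (log2 difference -1.71; limma, adjusted p = 0.0799). RGS5, a pericyte signalling regulator, averaged 219.9 and 86.6 FPKM and CNN1, smooth muscle calponin, 2.96 and 1.20 FPKM. MYH11, the myosin of mature smooth muscle, stayed between 0.00741 and 0.220 FPKM.

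FOXO regulators and targets had medians close to that of all genes. Among 16 kinases and phosphatases upstream of FOXO, all tested, 0 were called and the median was 0.09. SGK1, a kinase that phosphorylates FOXO proteins, averaged 23.2 FPKM in DMSO and 7.65 FPKM in SB (log2 difference -1.48; limma, adjusted p = 0.0803), whereas PIK3CB, a catalytic subunit of PI3 kinase, averaged 29.1 and 50.4 FPKM and INSR, the insulin receptor, 2.38 and 1.21 FPKM. Of 22 FOXO target genes 19 were tested, 0 were called and the median was 0.01. TXNIP, an inhibitor of thioredoxin, averaged 167.4 FPKM in DMSO and 94.5 FPKM in SB, CDKN1A, the cell cycle inhibitor p21, 93.3 and 56.4 FPKM, and ANGPT2, an antagonist of the TEK receptor, 4.75 and 6.77 FPKM.

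**Figure D5:**
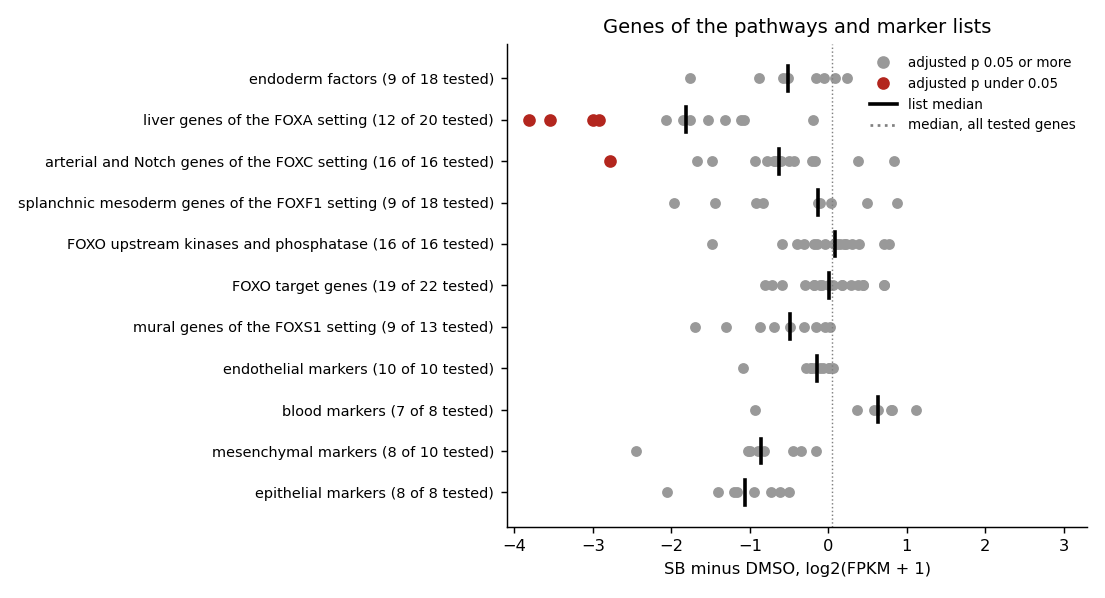
SB minus DMSO on the log2(FPKM + 1) scale (horizontal) for each tested gene of the pathway lists and marker lists (vertical). Grey points did not pass an adjusted p of 0.05 and red points did; black bars are list medians and the dotted line is the median of all 14909 tested genes. The red points are 4 liver genes and GJA5, all to the left of 0.

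The summed levels of epithelial and of mesenchymal markers were lower in both SB libraries. All 8 epithelial markers were tested, with none at 0. At an unadjusted p under 0.05, 8 were lower, beside 5.16% of all tested genes, and 0 were called. The summed FPKM of the 8 was 254.2 to 260.1 in DMSO and 117.7 to 125.1 in SB. Of 10 mesenchymal markers 8 were tested and 5 were lower at an unadjusted p under 0.05, beside the same 5.16%. The 10 markers summed to 322.8 to 369.5 FPKM in DMSO and 175.1 to 179.4 FPKM in SB. KRT19, KRT8 and CLDN6, keratins and a claudin of epithelia, averaged 42.3, 107.0 and 15.7 FPKM in DMSO and 9.38, 47.0 and 6.24 FPKM in SB. COL1A1, the main fibrillar collagen, averaged 93.0 FPKM in DMSO and 15.95 FPKM in SB, COL3A1 106.9 and 51.6 FPKM and PRRX1, a homeobox factor of limb mesenchyme, 1.35 and 0.264 FPKM, and DCN, decorin, was at 0.139 to 0.266 FPKM throughout. These markers were lower in the same libraries as FOXA2, FOXC2, FOXD1 and FOXS1, and their part in those values was not tested. PRRX1 and 2 of the 8 epithelial markers entered the test through DMSO only, which by itself favours a lower SB value. Of 10 endothelial markers, 1 was lower at an unadjusted p under 0.05 (ROBO4, a guidance receptor of vessels, 11.9 FPKM in DMSO and 5.05 FPKM in SB) and the median was -0.14.

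The remaining lists had 0 genes called by limma. Of 7 blood markers tested, 5 were higher and 1 lower at an unadjusted p under 0.05, beside 4.80% and 5.16% of all tested genes. RUNX1, the factor required for the emergence of blood from endothelium, averaged 34.4 FPKM in DMSO and 61.7 FPKM in SB, and the myeloid receptor CD33 2.83 and 7.35 FPKM. Of 4 cardiac markers tested 2 were lower at that level, NKX2-5, a heart field factor, at 33.6 FPKM in DMSO and 7.82 FPKM in SB, and the myosin light chain MYL7 at 1.48 and 0.176 FPKM. MYL4, another myosin light chain, was higher in both SB libraries (61.5 and 79.5 FPKM in DMSO, 91.8 and 111 FPKM in SB), and the summed FPKM of the 8 listed markers was 112 and 106.8 in DMSO and 104.1 and 117.9 in SB. TNNT2, the troponin of beating heart muscle, was below 1 FPKM in every library. Of 3 neural markers tested 2 were lower (NES, nestin, 26.9 and 17.1 FPKM, and OTX2, 1.44 and 0.454 FPKM). Of 5 pluripotency markers 2 were higher and 1 lower (POU5F1, 0.458 and 1.42 FPKM, LIN28A, 46.8 and 70.6 FPKM, and TDGF1, 1.06 and 0.261 FPKM). POU5F1 entered the test through SB only and MYL7, OTX2 and TDGF1 through DMSO only, which by itself favours the direction given.

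The genes whose pattern over the 4 libraries was most like that of each factor with a log2 difference of -1 or below were found by the largest difference of centred log2(FPKM + 1) values. GATA5, a zinc-finger factor of heart and gut, and COL5A1, a collagen chain, were nearest to FOXA2, within 0.0195 and 0.0223 in every library. SLIT3, a guidance ligand, and IGFBP7, a secreted IGF-binding protein of vessels, were nearest to FOXC2, within 0.0863 and 0.0909. FOXS1 was nearest to LRP1, an endocytic receptor (0.0456), and FBXO2, an F-box protein (0.0902), and FOXD1 to LTBP2, a latent TGFβ-binding protein family member (0.108), and HMCN2, a hemicentin (0.111). Within 0.1 lay 12 genes for FOXA2, 2 for FOXC2, 2 for FOXS1 and 0 for FOXD1. This scale compresses low values, so likeness on it is not likeness of FPKM ratios. COL5A1 was at 61.3 and 43.2 FPKM in DMSO and 25.7 and 19.9 FPKM in SB. GATA5 was at 6.65 and 4.31 FPKM in DMSO and 2.24 and 1.57 FPKM in SB. The DMSO mean of FOXA2 was 5.53 times its SB mean, a wider ratio than for either gene.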

How the data were processed

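Expression in 2 DMSO and 2 SB libraries of H1 cells was analysed from 1 deposited table of FPKM values made by the authors. The submitters' processing notes name BWA, Bowtie and RSEM, without versions, and hg19; of the table's versioned identifiers 95.5% were in GENCODE 29 and 99.8% of these had its GRCh38 positions, so positions are given on GRCh38. Depth was estimated from the steps between low FPKM values of single-exon genes, of which 94.3% to 94.6% came within 0.05 fragment of a whole number below 20 fragments. Genes with a mean of at least 1 FPKM in either group were compared on log2(FPKM + 1) by limma 3.58.1 in R 4.3.3 with trended empirical Bayes, which was tested on simulated data; this scale understates the change of low genes. Intervals are 95%. Promoters were taken from RefSeq (GRCh38.p14) and transcripts from GENCODE 29. No promoter was used for FOXA2, FOXC2, FOXF1 and FOXS1. Figures were drawn with matplotlib.

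The 10 factors and all gene lists were chosen with earlier results of these data known. Named were the 10 factors, other forkhead genes called or with a log2 difference of at least 1 in size and the 3 with the highest level, each non-coding neighbour, the 3 genes of each other list with the smallest unadjusted p, and the 2 genes most like each factor that had a log2 difference of at least 1 in size. FOXN2, FOXM1 and FOXL1, and list genes beyond the 3, were named after their values were seen. A gene of the blood list that the rule names is not reported here. Other filters, pseudocounts, scalings, spread models and sets of libraries were tried.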

Additional observations from a re-analysis of the deposited data

How the results depend on the processing

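All 10 factors kept their direction under every scaling, filter, pseudocount and spread model that gave them a value (the filter of 5 FPKM in 2 libraries left 4 of them), and turned only when 1 library was left out: FOXA1 to 0.0917 without DMSO replicate 1, and FOXC1 to -0.246 without DMSO replicate 2 and -0.216 without SB replicate 1. With 1 library left out the log2 differences ranged from -0.909 to -1.43 for FOXA2, -1.59 to -2.08 for FOXC2, -0.68 to -1.93 for FOXD1, -1.17 to -1.79 for FOXS1 and 0.375 to 0.885 for FOXF1, -0.868 to 0.0917 for FOXA1 and -0.246 to 0.959 for FOXC1; the lone library of a group was then assumed to vary like the other group. The number of genes called was 20, and 0 without the filter on low values, 31 with quantile normalization and 0 to 16 with 1 library left out (0 without DMSO replicate 1 and 7 without SB replicate 1). The replicate numbers are not tied to a shared culture or day by the labels, and deviations of same-numbered libraries correlated at 0.528 over genes; the component with the largest share of variance (47.4%) separated numbers 1 and 2 and the next (38.7%) DMSO and SB. With the replicate number as a block, 1564 genes were called (820 higher and 744 lower), among them 5 of the 10 factors: FOXA2 (-1.17, adjusted p = 0.0401), FOXC2 (-1.84, 0.00983), FOXD1 (-1.31, 0.0356), FOXS1 (-1.48, 0.0208) and FOXF1 (0.63, 0.0430). With the block 10 liver genes, 13 arterial and Notch genes, 3 of the other forkhead genes and 1 to 6 genes of each remaining list were called; without it none of the 10 factors was called under any alternative. At 19690000 to 25980000 fragments, values of FOXC2 and FOXS1 in SB rest on 11 to 39 fragments a library.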
